A study of Mus musculus with 39 samples.

Results

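The Dlk1-Meg3 locus is an imprinted gene cluster on distal mouse chromosome 12, and 5 of its genes are described here: Dlk1, Meg3, Rtl1, Rian and Mirg. They were found by symbol in tables of 53379 annotated genes, and their counts were read in the 36 of 39 libraries in which at least 40% of reads aligned uniquely. Chromosome 7, not chromosome 12, was the engineered chromosome in these embryos. The question put to the locus was therefore whether its genes differed between ages, between sorted colours and between cells with opposite parental origin of chromosome 7.

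The embryos carried the MADM-7-GT and MADM-7-TG cassettes (Mosaic Analysis with Double Markers) with Emx1-Cre on a mixed C57BL/6J and CD1 background, and the sample labels give the strain as CD1. In MADM, Cre-driven recombination between homologous chromosomes in dividing cells labels sparse daughters. Green (GFP) and red (tdTomato) cells carry chromosome 7 from the same parent on each homolog, the mother in one colour and the father in the other, and yellow cells, positive for both proteins, hold a copy from each parent. Which colour was paternal depended on the cross: red in replicates 1 to 3 and green from replicate 4 on, as the study's sample sheet gives it. Neocortex was dissected at embryonic day (E) 13 or E16, and pools of 200 to 400 cells were sorted per colour, 1 library each. The study's replicates were single individuals, and libraries of an age with the same replicate number were taken as 1 embryo. Emx1-Cre acts in dorsal telencephalic progenitors and their offspring, and each pool mixes the cell types of that lineage at its age. After the alignment threshold, each colour had 5 libraries at E13 and 7 at E16, from 13 embryos, of which 12 had both a red and a green library. Because a library is a pool of cells, fewer expressing cells and less RNA per cell cannot be told apart.

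Imprinted genes are transcribed mainly from the maternal or the paternal copy. In this cluster the protein-coding genes Dlk1 and Rtl1 are known as paternally expressed, and the noncoding RNAs Meg3, Rian and Mirg as maternally expressed. A methylated control region between Dlk1 and Meg3 sets this pattern. Dlk1 encodes a membrane protein related to Notch ligands that restrains differentiation in several stem cell types. Meg3 is a long nuclear RNA abundant in neurons, Rian is a host transcript of small nucleolar RNAs (snoRNAs), Mirg is a host of microRNAs (miRNAs), and Rtl1 is a protein derived from a retrotransposon. The reads carry no allele information, so imprinting itself was not measured.

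The genes lie within about 300 kb and are read in the same direction except for Rtl1. By Gencode M21 on GRCm38, Dlk1 spans chr12:109452823-109463336, Meg3 chr12:109541001-109571726, Rtl1 chr12:109589193-109600330, Rian chr12:109603940-109661716 and Mirg chr12:109729764-109749460. Rtl1 is on the minus strand and the other 4 genes are on the plus strand. The 250 bases before the RefSeq starts of Dlk1 and Meg3 are shown because these genes, neighbours in the cluster, stood at opposite ends of its detection. Capitals mark 3 motifs searched on both strands: the cAMP response element (TGACGTCA), the TATA box letters (TATAAA) and the CCAAT box (CCAAT).
Dlk1 promoter, chr12:109452573-109452822, plus strand, GRCm38.p6: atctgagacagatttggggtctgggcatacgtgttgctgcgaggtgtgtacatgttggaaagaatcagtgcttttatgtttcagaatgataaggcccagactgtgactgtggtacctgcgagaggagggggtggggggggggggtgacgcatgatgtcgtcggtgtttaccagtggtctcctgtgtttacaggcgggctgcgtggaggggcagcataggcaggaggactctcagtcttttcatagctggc
Meg3 promoter, chr12:109540746-109540995, plus strand, GRCm38.p6: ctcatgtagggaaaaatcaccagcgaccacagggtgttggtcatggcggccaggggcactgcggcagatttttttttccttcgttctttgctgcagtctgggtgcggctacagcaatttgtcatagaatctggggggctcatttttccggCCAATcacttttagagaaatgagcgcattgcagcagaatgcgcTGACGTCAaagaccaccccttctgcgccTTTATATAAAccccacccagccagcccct
The Meg3 window held all 3 motifs and the Dlk1 window held none. The cAMP response element letters were in 1.55% of 32851 promoter windows of the same length, the TATA letters in 12.4% and CCAAT in 33.8%. All 3 occurred together in 0.0396% of the windows. The 3 motifs were picked by name, so this share is a description and not a test. The TATA letters occur in the Meg3 window on both strands, in overlapping copies. A match describes the letters only, and its relation to detection was not tested.

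Rtl1 has a further complication that its sequence neighbours show. A transcript on the opposite strand carries miRNA hairpins inside the Rtl1 gene, 5 of which are shown here. The deposited counts used here ignore strand, so reads of Rtl1 and of this antisense transcript cannot be told apart. The RefSeq sequence of 1 mature arm of each of these 5 hairpins is given below, each on the plus strand, with the seed (bases 2 to 8) in capitals.
mmu-miR-431-5p: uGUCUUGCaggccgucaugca
mmu-miR-433-3p: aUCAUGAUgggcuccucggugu
mmu-miR-127-3p: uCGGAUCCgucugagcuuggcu
mmu-miR-434-3p: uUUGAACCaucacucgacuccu
mmu-miR-136-5p: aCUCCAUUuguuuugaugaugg
The 10 mature arms of the 5 hairpins shown have 10 different seeds. Counting without strand drops reads in bases that genes on both strands share, which covers these hairpins, so their rows measure nothing here. The protocol selected polyadenylated RNA, and mature miRNAs are not captured by it.

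The libraries held 472924 to 5205788 counts in genes and 7858 to 13768 detected genes. A gene with 3 counts in a library corresponded to 0.525 to 5.81 CPM, the depth-scaled count used throughout, with library sizes scaled by TMM. Of the lists of markers, all 8 radial glia genes, all 4 intermediate progenitor genes and all 9 projection neuron genes were detected, and the 9 projection neuron genes summed to 3203 to 13400 CPM per library. Erythroid genes, which the Emx1 lineage should lack, summed to 0.214 CPM in the lowest library and 18971 CPM in the highest.

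Within the cluster, Meg3 was the only one of the 5 genes detected in all 36 libraries. Rtl1 was detected in 21 libraries, Rian in 18, Mirg in 9 and Dlk1 in 4. Total counts were 14990 for Meg3, 7250 for Rtl1, 347 for Mirg, 319 for Rian and 35 for Dlk1. Per exon length, the mean level over all libraries was 8.78 CPM per kb for Rtl1, 7.18 for Meg3, 0.379 for Mirg, 0.191 for Rian and 0.0496 for Dlk1. The order of Rtl1 and Meg3 rested on the summary used, since the median levels were 0.987 and 5.08 CPM per kb. The levels of single libraries overlapped within that pair and between Mirg and Rian. Within groups, the SD of log2 CPM was 1.54 for Meg3 and 3.51 for Rtl1, against a median of 1.77 over all 11472 genes with a mean count of 10 or more. Meg3 thus varied less than most genes, 34.0% of genes having a smaller SD, whereas 99.9% had a smaller SD than Rtl1.

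**Figure D1:**
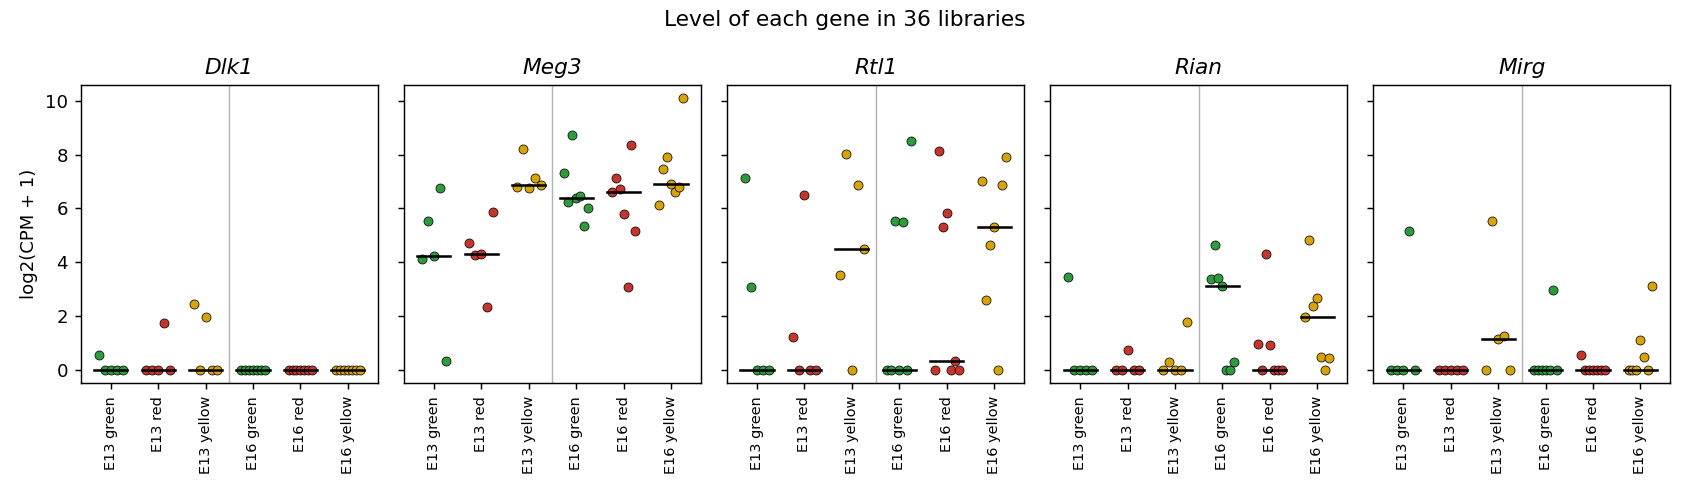
Level of the 5 genes in each of 36 libraries, as log2(CPM + 1), by age and sorted colour, with 5 points per colour at E13 and 7 at E16. Horizontal lines are group medians. Meg3 is above 0 in every library, whereas Rtl1 is at 0 in 15 libraries and above 80 CPM in at least 1 library of every group.

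Dlk1 was found in 4 libraries of E13 and in none of E16. At E13 its counts were 14 in yellow replicate 1, 12 in yellow replicate 4, 8 in red replicate 4 and 1 in green replicate 1, and 0 in the other 11 libraries. The 35 counts thus came from 2 embryos. At E16 there were 0 counts in 21 libraries, which pooled allows a level of up to 0.0488 CPM, against a pooled 0.640 CPM at E13. The 4 libraries with Dlk1 were also those with the highest sums of 5 erythroid marker genes at E13, 6956 to 18971 CPM, against 0.214 to 6416 CPM in the other 11. The sums of 7 pericyte and meningeal fibroblast genes overlapped, at 55.6 to 679 CPM in the libraries with Dlk1 and 0 to 865 CPM in the others. The part of the erythroid signal in the Dlk1 counts was not tested. At E16 red replicate 1 reached 6970 CPM of erythroid genes with 0 Dlk1 counts. Dlk1 did not reach a mean count of 10 in any comparison and was not tested. With every gene of at least 1 count included, its lowest adjusted p was 0.191 in edgeR's quasi-likelihood test, for E16 against E13 in red cells.

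Meg3 had its highest E13 values in yellow cells, and no difference in it passed the test across all genes in any comparison. In E13 yellow cells it measured 111, 297, 108, 141 and 115 CPM in replicates 1, 2, 4, 5 and 6. In E13 green cells it measured 16.4, 45.8, 17.7, 107 and 0.244 CPM in replicates 1, 2, 3, 4 and 6, the last resting on 1 read count. In E13 red cells it measured 25.5, 18.4, 18.95, 4.02 and 56.9 CPM in the same replicates. All 5 yellow libraries lay above all 10 red and green libraries, although the lowest yellow value (107.9 CPM) and the highest green value (106.7 CPM) were next to each other. Such a separation, lower in green than in yellow, was seen in 1.56% of 11786 genes, and lower in red in 1.04%. In each of the 4 embryos with all colours at E13, the yellow library was the highest. The 297 CPM came from the E13 library with the largest share of aligned reads outside genes among those kept (40.9%), and the study's sample sheet does not mark it as used. The part of such library differences was not tested.

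Neither difference passed the test across all genes. Meg3 in green relative to yellow cells at E13 had a fitted log2 ratio of -2.14 (SE 1.20, 95% interval -4.73 to 0.46, edgeR quasi-likelihood adjusted p = 0.821). In red relative to yellow cells it was -2.29 (SE 1.17, interval -4.84 to 0.25, edgeR adjusted p = 0.999). With the libraries the study used these values were -1.67 and -1.95. None of the 3 genes of the cluster that could be tested was called by edgeR in either comparison, where 0.0255% and 0% of all genes were. Green and red cells at E13 differed in Meg3 by 0.16 (SE 1.24), and 0% of genes were called there. The summed level of the 9 projection neuron markers was also without overlap, at 5902 to 6976 CPM in yellow, 3203 to 4958 CPM in green and 3484 to 5131 CPM in red cells at E13. The 8 radial glia markers summed to 714 to 1697 CPM in yellow against 1868 to 3200 CPM in green and 1840 to 2490 CPM in red, without overlap with yellow. Vim, an intermediate filament gene of radial glia, was the 1 gene of these lists that edgeR called (green against yellow 1.72 in log2, SE 0.25, edgeR adjusted p = 0.04996). The number of all genes called in that comparison was 3, ranged from 0 to 5 when leaving out each embryo, and was 0 with all 39 libraries. Calb2, a Cajal-Retzius cell marker, was 29.3 to 63.4 CPM in yellow, 0 to 15.9 CPM in green and 0.446 to 25.5 CPM in red cells, called by DESeq2 (adjusted p = 0.0153 and 0.0294) and not by edgeR (adjusted p = 0.760 and 0.999). The 4 Cajal-Retzius genes summed to 193 to 472 CPM in yellow, 18.5 to 285 CPM in green and 32.0 to 554 CPM in red cells, and the 4 intermediate progenitor genes to 257 to 552, 582 to 824 and 473 to 1013 CPM. The part of cell composition in the Meg3 levels was not tested.

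At E16 the colours overlapped widely. Meg3 ranged from 69.2 to 1086 CPM in yellow (median 119), from 40.1 to 425 in green (median 83.5) and from 7.54 to 328 in red cells (median 96.4). The highest value, in yellow replicate 7, stood far above the other yellow libraries and came from the kept library with the fewest detected genes (7858) and the largest share of reads outside genes (44.1%). The lowest, in red replicate 5, came from the library with the highest projection neuron sum and the largest share of reads in overlapping genes (18.5%). The fitted log2 ratio of Meg3 in green to red cells was 0.43 (SE 0.76), that in green to yellow -0.66 (SE 0.75) and that in red to yellow -1.08 (SE 0.79), none called, as for 0% of genes in each of these comparisons. The yellow library was the highest in 4 of 7 embryos.

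With age, Meg3 showed positive fold changes in each colour that did not pass the test. In red cells it measured 24.8 ± 19.6 CPM (SD, n = 5) at E13 and 109 ± 106 CPM (SD, n = 7) at E16, a log2 fold change of 2.12 (SE 0.86, 95% interval 0.29 to 3.95, edgeR unadjusted p = 0.026, adjusted p = 0.313). In green cells it measured 37.4 ± 42.1 and 133 ± 134 CPM (SD, n = 5 and n = 7), a change of 1.85 (SE 0.89, edgeR adjusted p = 0.335). In yellow cells it measured 154 ± 80.6 and 271 ± 364 CPM (SD, n = 5 and n = 7), a change of 0.80 (SE 0.64, edgeR adjusted p = 0.904). The ages overlapped in every colour, and without yellow replicate 7 at E16 the change in yellow cells was -0.19. Neither age group of yellow cells holds its highest library when restricted to those the study used, and the change was then 0.18. Among the genes of the cluster, 0 of 3 tested were called in yellow, 0 of 2 in red and 0 of 3 in green cells, against 0.149%, 0.322% and 1.39% of all genes. DESeq2 called none of them with age. Summing the 3 colours of each embryo gave 1.33 for Meg3 (edgeR adjusted p = 0.192).

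**Figure D2:**
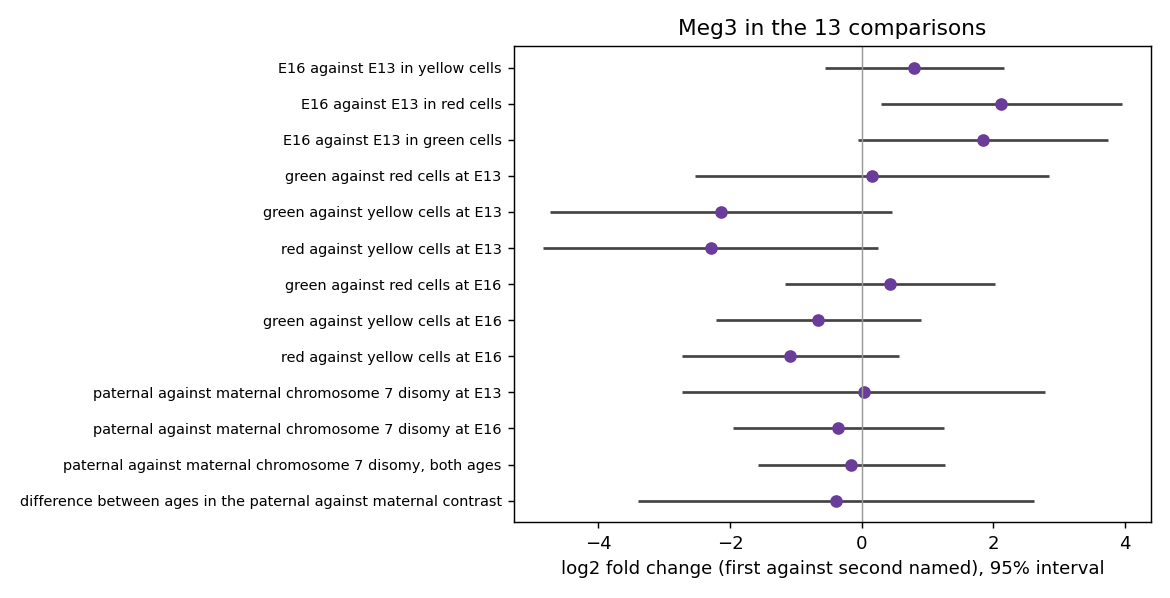
Log2 fold change of Meg3 in each of the 13 comparisons, as points, with 95% intervals from the edgeR fit as lines. The interval lies above 0 for E16 against E13 in red cells (0.29 to 3.95) and includes 0 in the other comparisons, and no comparison passed the adjusted threshold. The lowest line is the E16 minus E13 difference of the paternal against maternal contrast.

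Across all 36 libraries, log2 CPM of Meg3 and the log2 sum of projection neuron markers had a Pearson r of 0.36, and of -0.38 once group means were removed. These are descriptions over libraries that share embryos and a lineage. The sign thus differed over all libraries and within groups. E16 red replicate 5 joined the lowest E16 Meg3 level (7.54 CPM) to the highest marker sum (13399 CPM). E16 yellow replicate 7 joined the highest Meg3 level (1086 CPM) to the lowest marker sum of its group (5271 CPM). The study's sample sheet marks neither library as used, and their part in these values was not tested. For radial glia markers r was -0.40 and within groups -0.14.

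**Figure D3:**
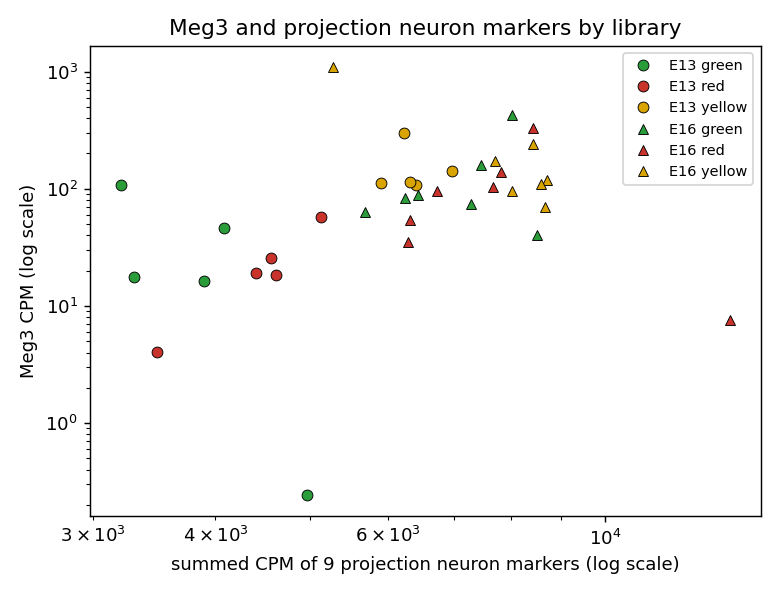
Meg3 against the summed level of 9 projection neuron markers in each of 36 libraries, both in CPM on log axes, with circles for E13, triangles for E16 and point colour for the sorted colour. The 10 red and green E13 libraries lie at the left, at 3203 to 5131 CPM of markers, and the library at the far right is E16 red replicate 5.

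Rtl1 ranged from 0 counts to more than 80 CPM within every group, with low and intermediate values between. At E13 its counts were 33, 1096, 0, 335 and 96 in yellow replicates 1, 2, 4, 5 and 6, and in red cells they were 5, 0, 398, 0 and 0 in replicates 1, 2, 3, 4 and 6. Green cells of the latter embryos held 296, 43, 0, 0 and 0 counts. At E16 Rtl1 ranged from 0 to 237 CPM in yellow (median 38.6), from 0 to 361 CPM in green (median 0) and from 0 to 278 CPM in red cells (median 0.243). Every group had at least 1 library at 0 and at least 1 above 80 CPM, so groups overlapped in all comparisons. The 2 sorted colours of an embryo were often discordant: of 12 embryos with red and green libraries, Rtl1 was in both in 2, in 1 of them in 7 and in neither in 3. Rtl1 was called in no comparison by edgeR. Its unadjusted p was under the threshold only for red against yellow cells at E13 (unadjusted p = 0.039, adjusted p = 0.999), where the mean was 18.0 ± 39.5 CPM in red and 80.7 ± 109 CPM in yellow cells (SD, n = 5 each).

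Rian and Mirg, the host transcripts, were near or under the detection limit. Of the E13 libraries 11 of 15 held 0 Rian counts, against 7 of 21 E16 libraries, and its pooled level was 0.658 CPM at E13 and 4.6 CPM at E16. Its highest counts were 83 in green replicate 2, 73 in red replicate 3, 38 in green replicate 3 and 27 in yellow replicate 2 of E16, the last being the highest by CPM (27.2). At E13 the highest was 21 in green replicate 1. These lay beside 0 counts in other libraries of the same group. Rian reached the count filter in green cells across ages and in the E16 comparisons, and was called in none.

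Mirg was detected in a few libraries of both ages, with its highest counts at E13. It had 193 counts in yellow replicate 2 and 84 in green replicate 4 of E13, and 34 in green replicate 6 and 22 in yellow replicate 7 of E16. Red cells held 0 counts in all 5 E13 libraries and 1 count in 1 of 7 at E16. Mirg was tested in the E13 comparisons and with age in yellow cells, and edgeR called it in none. DESeq2's Wald test called it at E13 for green against red, red against yellow and paternal against maternal cells. There DESeq2 called 229, 321 and 217 of all 11786 genes. Each of these contrasts sets libraries at 0 against a group in which 1 library held nearly all counts.

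Most reads of the cluster lay in other annotated transcripts. Of 113 further genes between Dlk1 and Dio3, 14 were detected, and 90 of the 113 were miRNA or snoRNA rows that together held 139 counts. The 5 genes described here held 22.5% of the counts of the domain, whereas 3 other rows on the plus strand held 77.4%. These were Gm37899 (chr12:109668869-109677585, between Rian and Mirg, 47984 counts), Gm26945 (chr12:109640341-109642351, inside the Rian span, 22239 counts) and B830012L14Rik (chr12:109695586-109702587, 8831 counts). The other named rows of the domain, Gm44322 and Gm3379, held 89 and 28 counts. Per exon length, Gm26945 had a mean of 95.4 CPM per kb, Gm37899 47.8 and B830012L14Rik 16.9, each above the 8.78 of Rtl1 and the 7.18 of Meg3. Rian, whose span contains Gm26945, had 0.191 CPM per kb.

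**Figure D4:**
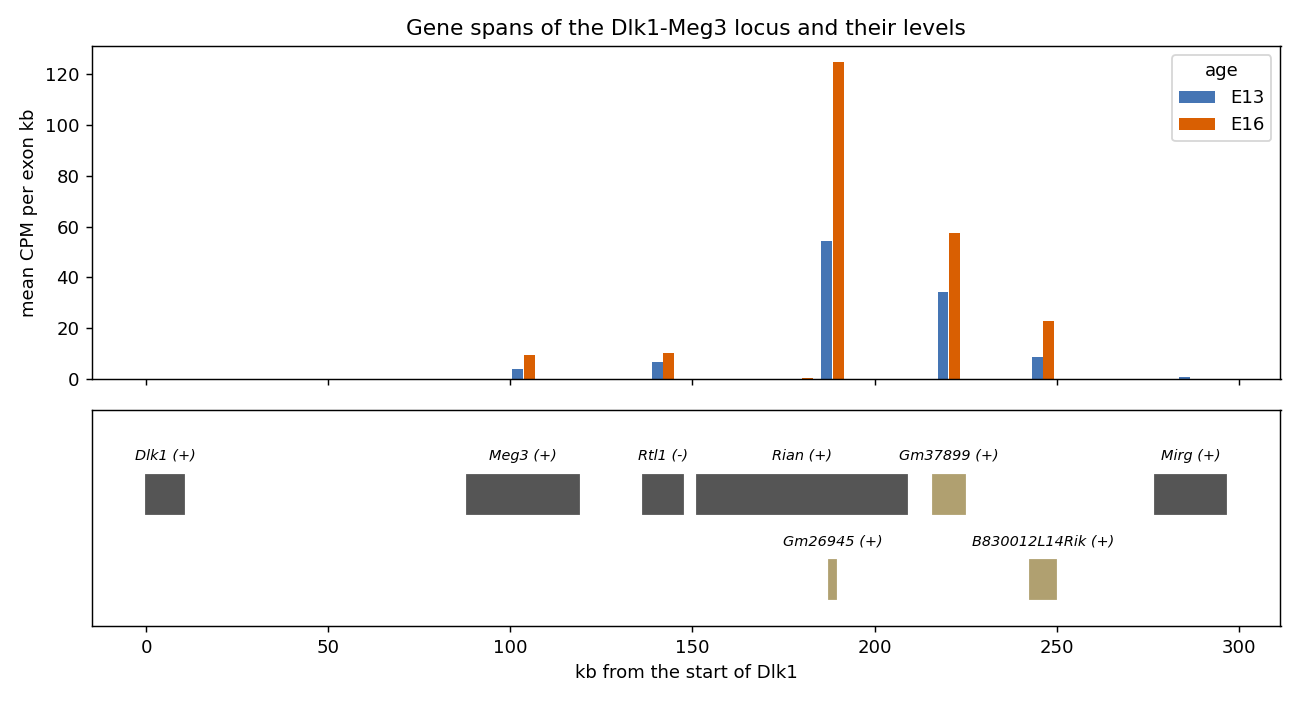
Upper panel, mean level in CPM per kb of exon of the 5 genes and 3 neighbouring rows over 15 libraries of E13 and 21 of E16. Lower panel, gene spans by distance in kb from the start of Dlk1, with the strand, the 5 genes in grey and the neighbours in tan. Gm26945 reaches 54.3 at E13 and 125 CPM per kb at E16, whereas the Rian row that spans it stays under 0.3.

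Among these neighbouring rows, 2 had groups that did not overlap, in differences that edgeR did not call and DESeq2 did. Gm37899 in E13 green cells (57.5 ± 52.6 CPM, SD, n = 5) lay under E13 yellow cells (695 ± 1037 CPM, SD, n = 5). The highest green value (104.9 CPM) and the lowest yellow value (105.5 CPM) were next to each other. Yellow replicate 2, which the study's sample sheet does not mark as used, reached 2531 CPM. Such a separation, lower in green, was seen in 1.56% of 11786 genes. The fitted log2 ratio of Gm37899 in green to yellow cells was -4.88 (SE 1.22, edgeR adjusted p = 0.489). Gm26945 in green cells was 44.3 ± 39.4 CPM at E13 (SD, n = 5) and 289 ± 141 CPM at E16 (SD, n = 7) without overlap, a change of 2.70 (SE 0.81, edgeR adjusted p = 0.117), and a separation with higher E16 values was seen in 1.81% of 11186 genes. DESeq2 called both of these differences (log2 -5.16, DESeq2 adjusted p = 0.00106 for Gm37899, and 2.67, DESeq2 adjusted p = 0.00624 for Gm26945). In the same comparisons it called 522 of 11786 and 691 of 10821 of all genes. By edgeR none of the 3 rows was called in any comparison.

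Counting also bears on Meg3. Of its exon bases, 6.79% overlap exons of Gm26906 on the other strand, and counting without strand drops reads there as ambiguous. The sum of both stranded columns was 131% of the unstranded count for Meg3, 102% for Rtl1 and 100% for the other 3 genes. With the summed columns, the log2 fold change of Meg3 with age was 2.05 in red, 1.32 in green and 0.50 in yellow cells, none called.

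The last question was whether the parental origin of chromosome 7 altered the cluster. As a check of the labels, Cdkn1c, a maternally expressed cell cycle inhibitor gene on chromosome 7, was compared in the same pairs: it was lower in paternal disomy in 12 of 12 embryos, by a mean of -5.10 (SD 2.53) in log2 CPM. Its exact two-sided sign-flip permutation p over embryos was 0.000488, the smallest that 12 embryos allow. In the fit across both ages, 8 genes (0.0697% of 11472) were called, all 8 on chromosome 7 and 0 on chromosome 12. Of 4 listed maternally expressed genes of chromosome 7, edgeR called Cdkn1c alone (-5.35, SE 1.03). Ube3a (-0.70, SE 0.24) and H19 (-0.84, SE 1.43) were not called, and Phlda2 was not detected. H19 at E13 averaged 79.8 CPM in paternal and 72.8 CPM in maternal disomy. Of 10 tested paternally expressed genes of chromosome 7, 6 were higher in paternal disomy, among them Snrpn, an RNA processing gene (3.85, SE 0.38), and Ndn, a growth suppressor gene of neurons (3.98, SE 0.48).

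Meg3 was higher in the paternal cells of some embryos and lower in those of others. Within embryos, paternal minus maternal log2 CPM averaged -0.17 (SD 2.80, n = 12), with paternal cells higher in 7 embryos and lower in 5 (exact two-sided sign-flip permutation p = 0.836). At E13 paternal and maternal cells held 25.5 and 16.4 CPM in embryo 1, 18.4 and 45.8 in embryo 2, 18.95 and 17.7 in embryo 3, 107 and 4.02 in embryo 4, and 0.244 and 56.9 in embryo 6. At E16 the paternal values ranged from 40.1 to 138 CPM (median 87.9) and the maternal values from 7.54 to 425 CPM (median 73.9). The widest differences, 4.53 and -6.06, were thus of opposite sign and came from a pair of E13 embryos in which green cells were paternal. In the fit across both ages the log2 fold change was -0.16 (SE 0.69, 95% interval -1.57 to 1.26, edgeR adjusted p = 1), an interval that includes differences of 2-fold in either direction. It was 0.03 (SE 1.27) at E13 and -0.36 (SE 0.77) at E16, and the difference between these was -0.39 (SE 1.46).

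**Figure D5:**
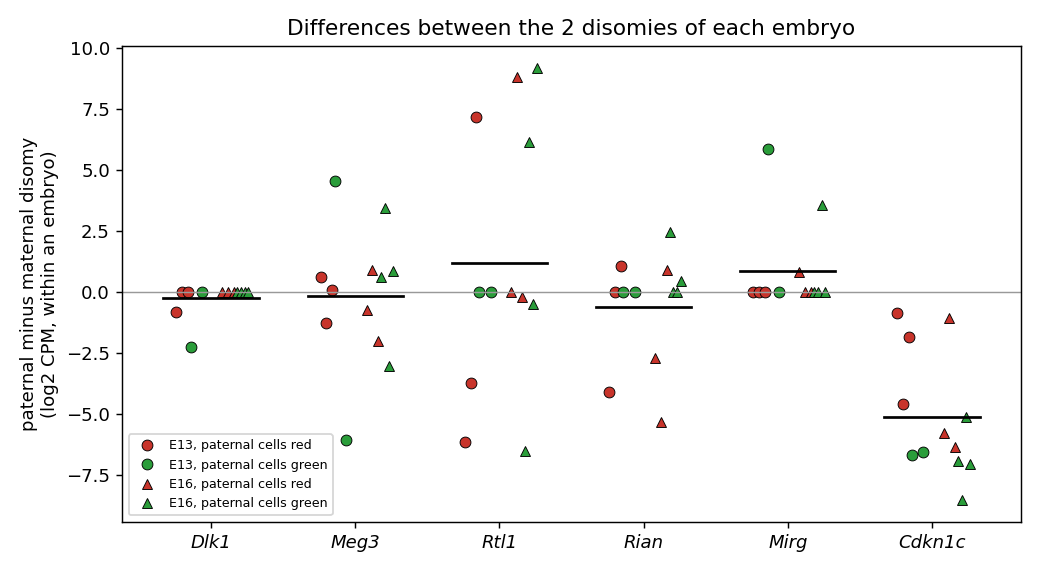
Difference in log2 CPM between the paternal and the maternal disomy library of each embryo for the 5 genes of the cluster and for Cdkn1c, with circles for E13 (5 embryos), triangles for E16 (7 embryos) and colour for the colour of the paternal cells. Horizontal lines are means over 12 embryos. The points of the cluster's genes lie on both sides of 0 or on it for Meg3, Rtl1 and Rian, and all 12 points of Cdkn1c lie under 0.

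The other genes of the cluster were not called by edgeR either, whereas DESeq2 called Mirg at E13 and Rtl1 for the difference between ages. In these fits DESeq2 called 217 of 11786 and 174 of 11472 of all genes. Rtl1 averaged 1.19 (SD 5.47), higher in paternal cells in 4 embryos, lower in 5 and equal at 0 counts in 3 (exact two-sided sign-flip permutation p = 0.488). Rian averaged -0.60 (SD 2.25, 4 higher and 3 lower, exact permutation p = 0.391). Mirg was found in paternal cells of 3 embryos and in maternal cells of none (mean 0.85, SD 1.88, exact permutation p = 0.250), and Dlk1 in maternal cells of 2 embryos and paternal cells of none (mean -0.25, SD 0.67, exact permutation p = 0.5). With so few embryos above 0, these 2 genes could not have passed a threshold of 0.05. Of the genes of the cluster tested by edgeR, 0 of 3 were called at E13, 0 of 3 at E16 and 0 of 2 over both ages or in the difference between ages, where 0%, 0.0278%, 0.0697% and 0% of all genes were. No tested gene of the cluster had an unadjusted p under 0.05 in these 4 fits.

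Genes around and upstream of the cluster were read for context. Of 10 genes flanking the domain, 7 to 9 could be tested and none was called in any comparison. Of 16 regulators of imprints, 13 or 14 could be tested, and edgeR called 2, in a comparison where it called 1.39% of all genes: Dnmt3a, a de novo DNA methyltransferase (log2 fold change -2.27, SE 0.42, edgeR adjusted p = 0.0137), and Ezh2, a histone methyltransferase (-1.21, SE 0.27, edgeR adjusted p = 0.0401), both lower at E16 in green cells. Trim28, a corepressor that maintains imprints, had a log2 fold change of -1.28 there (SE 0.32, edgeR adjusted p = 0.0554), and Dnmt1, the maintenance methyltransferase, one of -0.89 (SE 0.26, edgeR adjusted p = 0.111). Zfp57, which binds methylated imprint control regions, did not reach the count filter. DESeq2 called 5 of the list there, Trim28, Dnmt1 and Suz12 among them, 1 with age in yellow cells, and, relative to yellow cells at E13, 4 in green and 2 in red cells. DESeq2 called 691 of all 10821 genes with age in green, 298 of 10769 in red and 195 of 10893 in yellow cells. At E13 it called 522 of 11786 for green and 321 of 11786 for red against yellow cells. With age in green cells, the median of the regulator list was -0.48 against 0.02 over all genes. Of 12 Notch pathway genes, 9 or 10 could be tested, and edgeR called 1, Hes1, a Notch target that keeps progenitors undifferentiated, lower at E16 in the same comparison (-2.60, SE 0.52, edgeR adjusted p = 0.0228). DESeq2 also called Notch1, a receptor, with age in red and green cells and for green and red against yellow at E13, and Dll1, a ligand, with age in yellow cells. The median of that list was -1.21 against 0.02 over all genes. In green cells Stmn2, Neurod6 and Dcx, of the 9 projection neuron genes, were higher at E16. Vim and Hes1, of the 8 radial glia genes, were lower. The projection neuron genes summed to 3203 to 4958 CPM at E13 and 5679 to 8518 CPM at E16 in green cells. The radial glia genes summed to 1868 to 3200 CPM at E13 and 971 to 3751 CPM at E16, so their sums overlapped between ages. Between the parental origins, neither edgeR nor DESeq2 called a gene of the flanking, regulator or Notch lists.

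By likeness over the 36 libraries, the genes outside the domain most like Meg3 in log2 CPM included Pja2 (r = 0.83) and Fos (0.78). Of the cluster, Rtl1 ranked 572 of 11471 genes for Meg3 (r = 0.39) and Gm37899 ranked 274 (r = 0.48). For Rtl1 the closest were Npdc1 (0.61), Txnrd3 (0.57) and Nol10 (0.57), and Gm26945 ranked 7 (0.54). These values describe libraries that share embryos and depth.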

How the data were processed

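RNA of sorted neocortical cells was sequenced as Smart-Seq2 libraries without molecular identifiers. The authors aligned reads with STAR (2.5.0c per the labels) to GRCm38 with Gencode M16 and deposited raw read counts per gene in an unstranded and 2 stranded columns. The unstranded column was used, so reads overlapping genes on both strands were dropped, and Smart-Seq2 does not mark strand. Of 39 libraries, 3 with under 40% of reads aligned uniquely (18.8%, 19.1% and 36.1%) were left out. Symbols came from Gencode M21, which matched 53274 of 53379 rows.

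edgeR 4.0.16 (R 4.3.3; TMM, genes with a mean count of 10 or more, quasi-likelihood test, Benjamini-Hochberg over all tested genes, threshold 0.05) was run on the counts for 13 comparisons, with the embryo as block within ages and for parental origin. Paternal and maternal libraries of an embryo were also compared in log2 CPM by sign-flip permutation, exact and two-sided (prior count 2). The pairing was inferred from the replicate numbers in the labels, since the study's methods give single individuals as replicates. Same-numbered libraries of different colours correlated in their deviations from group means by 0.044 at E13 and 0.029 at E16 on average. Other pairs correlated by -0.0092 and -0.0036. SE is the fold change divided by the root of F. Alternatives were DESeq2 1.42.0, its size factors, no filter, all 39 libraries, the 32 used by the study, summed stranded columns, other blocks and leaving out libraries or embryos. Only the designs for age in yellow cells and for parental origin at E16 were run on simulated counts with known fold changes. The simulations gave all genes the same spread, unlike the genes of the cluster with many libraries at 0 counts. Depth was 472924 to 5205788 gene counts, and floors of 3 counts cover counting error only.

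The members and lists were chosen with earlier results of these data known. Named genes were the members, the domain rows with the 5 highest mean counts, the 3 genes most like each member that passed the filter over all libraries, and list genes past the threshold, with Zfp57, Trim28 and Dnmt1. Some genes that this rule names are not reported here. Promoter and miRNA sequences are from RefSeq (GRCm38.p6), in which both promoters and the 5 hairpins shown were found. The deposited counts held no columns of authors' comparisons. The study's supplement gives its own differential expression results, which are not compared here.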

Additional observations from a re-analysis of the deposited data

Results flagged for a closer look

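Of 35 sets of values (each gene in each group, and the differences within embryos at each age), 16 flags for a value far from the others arose by Dixon's ratio. The usual rate of about 1 in 20 assumes normally distributed values and does not apply to sets with many libraries at 0. A set with 1 library above 0 and the rest at 0 is always flagged. For Meg3 the flagged value was the 297 CPM of E13 yellow replicate 2. For Rtl1 it was the 88.7 CPM of E13 red replicate 3. For Dlk1 they were the 2.30 CPM of E13 red replicate 4 and the 0.469 CPM of E13 green replicate 1. For Rian they were 0.669 CPM in E13 red replicate 3, 9.85 CPM in E13 green replicate 1, 2.44 CPM in E13 yellow replicate 6 and 19.03 CPM in E16 red replicate 3. For Mirg they were 35.1 CPM in E13 green replicate 4, 45.3 CPM in E13 yellow replicate 2, 0.466 CPM in E16 red replicate 1, 6.78 CPM in E16 green replicate 6 and 7.59 CPM in E16 yellow replicate 7. Between the disomies, the paternal minus maternal log2 CPM of Rian was -4.08 in E13 embryo 1, and that of Mirg was 5.85 in E13 embryo 4 and 3.58 in E16 embryo 6. In most of these sets the remaining libraries were at or near 0 counts.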

How the results depend on the processing

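The count of called genes of the cluster was 0 in each of the 13 comparisons and stayed 0 in 91 of 95 alternative fits and in all 114 fits without 1 library or embryo. With DESeq2 it was 1 in 4 comparisons, the cause of which was not tested: Mirg for green against red cells, red against yellow cells and paternal against maternal cells at E13, and Rtl1 for the difference between ages in the paternal against maternal contrast (log2 12.33, DESeq2 adjusted p = 0.0333). Without the replicate block (embryos not paired), the cluster had 0 calls in each comparison, and the block changed no call of it. Over all genes, dropping the block moved calls from 8 to 12 for parental origin over both ages and from 3 to 6 for green against yellow at E13.

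Over all genes, DESeq2 called 195, 298 and 691 genes with age in yellow, red and green cells, against 17, 36 and 155 by edgeR. It called 229, 522 and 321 for green-red, green-yellow and red-yellow at E13 (0, 3 and 0 by edgeR), 76, 59 and 123 at E16 (0 each), and 217, 62, 83 and 174 for parental origin at E13, at E16, over both ages and in its difference between ages (0, 3, 8 and 0). The libraries the study used gave 146 and 189 calls with age in yellow and red cells, and all 39 libraries 5 and 36 in red and green. Without the count filter, calls were 55 with age in yellow cells, 1, 21 and 7 at E13 for the colours, 2 for red against yellow at E16, and 3, 11, 15 and 4 for parental origin. For green against yellow at E13 there were 0 with all libraries, 9 with those the study used and 1 with the stranded columns, for red against yellow 2 with those the study used and 1 without the block, and for parental origin over both ages 5 with all libraries. Summed colours gave 370 with age. Leaving out libraries gave 1 to 31, 5 to 78 and 71 to 203 with age in yellow, red and green. At an unadjusted p under 0.05, edgeR had 261, 749 and 553 genes at E13, 251, 166 and 313 at E16, and 264, 249, 267 and 291 for parental origin.

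Meg3 turned direction in small differences. With age in yellow cells it was -0.28 with DESeq2, and -0.19 to 1.15 when leaving out each library. Between parental origins at E13 it was -0.054 with the libraries the study used, and -1.18 to 1.02 without each embryo. The leave-one-out ranges were -0.96 to 1.19 for green against red at E13, -0.0023 to 1.07 at E16, -0.85 to 0.23 for parental origin at E16, -0.51 to 0.21 over both ages and -1.41 to 0.82 for its difference between ages. Within embryos the Meg3 difference was 0.0047 with E16 embryos alone and -0.60 to 0.36 without each embryo, and that of Rtl1 -0.54 with E13 embryos alone. Rtl1 between parental origins over both ages was -0.24 with the libraries the study used, against 2.39. The cause of these turns was not tested. Counts near 0 limit Dlk1, Rian and Mirg, and the Meg3 intervals span several log2 units.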
